A study of Mus musculus with 3 samples.

Results

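The skin balances proteases of the kallikrein family against dedicated inhibitors, and 90 genes of these families were measured here in sorted skin macrophages at 3 ages. They were chosen by symbol from the 19752 genes that have a named probe on the array: 27 kallikreins (Klk), 12 Kazal-type inhibitors (Spink), 27 clade B serpins (Serpinb), 7 stefins A (Stfa and Csta), and 17 other cystatins (Cst, including the cystatin-domain genes Cstdc and Cstl1). The choice used the symbol only, but these families were picked with the differences between the same arrays known, so all levels and differences are a description and none was tested.

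CD11b+Gr1-F4/80+ cells, annotated as skin resident macrophages, were sorted from the backskin of CD1 mice at postnatal day 42, 55, and 69 (P42, P55, and P69). The study names these stages early, mid, and late telogen, the resting phase of the hair cycle, and dates early telogen a little later than the label P42. All mice were of the same genetic background, with no allele or treatment that distinguishes the ages, and the study's methods describe female mice. RNA of 3 littermates was pooled per age, amplified from 0.05-1 ng, and hybridized to 1 Agilent 1-color array per age, so the 3 arrays hold no replicates and no difference between ages can be set against a spread between mice. The cells were gated on surface proteins, and marker genes of other cells are given below.

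Kallikreins are secreted serine proteases. In the outer epidermis they cut the corneodesmosomes that hold dead keratinocytes together, and inhibitors of the Kazal type, such as the product of Spink5, restrain them. Clade B serpins are mostly intracellular inhibitors that trap serine or cysteine proteases irreversibly, whereas stefins and cystatins are reversible inhibitors of the cathepsins that lysosomes of macrophages contain.

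Signals were expressed as log2 of the intensity relative to the 75th percentile of the array, called the level below, and a gene was taken as detected when its probe was well above background. At P42 53 of the 90 genes were detected (58.9%), at P55 40 (44.4%), and at P69 49 (54.4%), against 77.7%, 70.5%, and 77.0% of all genes. In total 28 genes were detected on all 3 arrays, 24 on none, 10 on the P42 array only, and 13 on a later array only. Of all 19752 genes, 13078 were detected on all 3 arrays, 3163 on none, 1008 on the P42 array only, and 1248 on a later array only. Where one of the arrays was not well above background, the difference is a bound: the bright level was set against the lowest level of any detected probe on the dim array (-4.50, -4.04, and -5.10 at P42, P55, and P69) or the dim probe's own level, whichever was higher, and is written as "at least". Error was measurable between repeated spots of a probe alone, with a median SD of 0.126, 0.108, and 0.119 (log2) at P42, P55, and P69, and of 0.236, 0.227, and 0.184 for probes with a level below -2, where most of these genes lie. A difference of a dim gene therefore carries a larger error than that of a bright one, and most of the kallikreins and Kazal-type inhibitors are dim. Fewer cells of a type and less RNA per cell cannot be told apart in such samples.

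Markers of other cells differed between these arrays, and their part in the results below was not tested. All 13 macrophage markers on the array were detected at each age, with a summed level (linear, relative to the 75th percentile) of 935, 824, and 572 at P42, P55, and P69 and median differences from P42 of -0.23 at P55 and -0.35 at P69. All 14 keratinocyte markers were detected as well, 11 of 14 were at least 2-fold higher on each later array, and their median difference was 3.27 at P55 and 3.15 at P69. Krt14, a keratin of basal keratinocytes, had levels of 1.22, 4.35, and 4.09 at P42, P55, and P69, and Lor, a protein of the cornified envelope, -4.02, 0.94, and 2.07. The summed level of the keratinocyte list was 279, 408, and 268, the larger share of it from the single probe of Trp63. Of 5 Langerhans and dendritic cell markers, 3 were at least 2-fold higher on each later array, with Cd207 (langerin) at 3.78, 6.76, and 5.90. Of all genes with a value, 29.2% were at least 2-fold higher at P55 and 22.3% at P69. Neutrophil markers showed 8 of 11 detected on each array, with Elane detected on none of them. Their summed level was 91.2, 78.5, and 58.8, the larger share of it from Csf3r. Their median difference from P42 was 0.66 at P55 and 0.01 at P69. The mast cell list had a summed level of 3.55, 1.65, and 1.20, the larger share of it from Tpsb2. Its median difference was -0.56 at P55 and 0.14 at P69. The fibroblast list had a summed level of 91.2, 42.6, and 46.2, with median differences of -1.15 at P55 and -0.92 at P69.

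The arrays of P55 and P69 carry a further doubt. In the processed table that the authors deposited, the P55 column matched the scanner array of P69 and the P69 column that of P55, with a residual SD of 4.1e-07 and 3.9e-07 (log2) over 36396 and 36390 probes. The scanner files are used as assigned. Differences that both later arrays share against P42 do not depend on this assignment, while every statement on P55 against P69 would turn around.

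Promoters are shown for 7 of the genes at least 2-fold from P42 on both later arrays, to let their sequence be compared with the levels that follow. They are those that hold a loose AP-1 motif (TGANTCA) or a TATA box, Klk7, and a pair of genes from the stefin cluster. RefSeq (GRCm38.p6) gave the 250 bases before the start for 72 of the 90 genes. The pattern TGANTCA, a loose form of the AP-1 motif with any base (N) at its centre, reads the same on both strands. Serpinb5 (chr1:106860925-106861174, plus strand) and Serpinb10 (chr1:107528753-107529002, plus strand), both higher on the later arrays, held it at -140 and -54 from the start. Both matches (in capitals) read TGAATCA.
Serpinb5: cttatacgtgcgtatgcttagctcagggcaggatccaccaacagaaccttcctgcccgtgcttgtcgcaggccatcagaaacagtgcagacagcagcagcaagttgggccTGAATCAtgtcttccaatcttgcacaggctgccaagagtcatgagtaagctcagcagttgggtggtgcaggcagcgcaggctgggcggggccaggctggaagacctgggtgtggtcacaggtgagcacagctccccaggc
Serpinb10: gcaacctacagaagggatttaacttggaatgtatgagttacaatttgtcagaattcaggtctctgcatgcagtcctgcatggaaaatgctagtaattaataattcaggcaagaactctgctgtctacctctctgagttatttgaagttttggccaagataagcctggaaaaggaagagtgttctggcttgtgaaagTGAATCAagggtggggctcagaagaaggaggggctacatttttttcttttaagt

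Klk7 (chr7:43811044-43811293, plus strand), the kallikrein with the highest bounds above P42, held neither this motif nor a TATA box.
Klk7: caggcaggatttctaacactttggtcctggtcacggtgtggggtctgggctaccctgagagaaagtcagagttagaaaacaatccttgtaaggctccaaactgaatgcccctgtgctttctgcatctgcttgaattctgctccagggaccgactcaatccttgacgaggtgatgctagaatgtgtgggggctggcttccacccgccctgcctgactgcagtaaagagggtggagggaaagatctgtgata

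Klk15 (chr7:43931425-43931674, plus strand) and Serpinb3c (chr1:107278372-107278621, minus strand), both lower on the later arrays, held the TATA box TATAAA (in capitals) at -30 and -31.
Klk15: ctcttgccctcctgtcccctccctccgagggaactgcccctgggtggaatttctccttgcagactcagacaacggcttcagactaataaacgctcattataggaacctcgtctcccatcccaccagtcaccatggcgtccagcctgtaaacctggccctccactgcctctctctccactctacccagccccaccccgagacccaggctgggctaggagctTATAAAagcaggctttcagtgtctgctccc
Serpinb3c: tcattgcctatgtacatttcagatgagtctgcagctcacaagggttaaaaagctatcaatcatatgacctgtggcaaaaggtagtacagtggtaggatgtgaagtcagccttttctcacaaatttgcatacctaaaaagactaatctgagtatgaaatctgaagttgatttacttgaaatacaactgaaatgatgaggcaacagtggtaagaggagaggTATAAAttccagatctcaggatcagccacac

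The promoters of Stfa3 (chr16:36455393-36455642, minus strand) and Cstdc5 (chr16:36367571-36367820, minus strand), which lie in one gene cluster and were both higher on the later arrays, are shown for their likeness, with 72.3% identical positions in their alignment and no capitals because neither motif was found.
Stfa3: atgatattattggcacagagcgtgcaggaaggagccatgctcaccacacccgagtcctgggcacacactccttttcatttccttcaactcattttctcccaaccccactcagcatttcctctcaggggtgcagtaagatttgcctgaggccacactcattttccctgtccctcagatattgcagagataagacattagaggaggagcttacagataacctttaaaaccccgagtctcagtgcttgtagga
Cstdc5: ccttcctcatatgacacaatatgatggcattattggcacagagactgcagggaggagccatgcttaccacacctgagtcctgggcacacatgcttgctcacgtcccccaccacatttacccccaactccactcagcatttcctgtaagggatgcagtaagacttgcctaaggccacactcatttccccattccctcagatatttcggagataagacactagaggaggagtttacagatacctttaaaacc

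The loose AP-1 motif TGANTCA was found in 9 of the 72 promoters (12.5%) against 6.87% of 27025 genes, searched on both strands over the same length. It stood in 2 of the 8 promoters of genes higher on both later arrays and in 0 of the 8 of genes lower on both. TATAAA was found in 9 of 72 promoters (13.0% of all genes), in 0 of 8 and 2 of 8 of these groups. The GC box GGGCGG was in 10 of 72 promoters (13.9%) against 32.9% of all genes, and the PU.1 motif GAGGAAGT in 0 of 72 against 2.44%. The short motif CACCC was in 48 of 72 promoters (66.7%) and in 51.3% of all. A match is only a run of letters, and neither the matches nor the missing ones say which factor binds.

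Comparing P69 with P42 asks how the genes stood in late against early telogen. Of the 90 genes, 62 had a value, 13 of them at least 2-fold higher and 24 at least 2-fold lower. Among all genes with a value, 22.3% were at least 2-fold higher and 21.2% at least 2-fold lower. Of the 24 lower genes, 15 were bounds, and with detection required on both arrays 8 genes were higher and 9 lower. The median difference was -0.53, and that of all genes 0.15. Over genes measured on both arrays these medians were -0.26 and 0.20. At the 10-fold change that the methods of the study use, Serpinb5 and Klk7 were higher and Klk15 and Spink6 lower, where 0.716% and 0.531% of all genes passed. These splits depended on the scaling of the arrays: 18 genes were higher and 15 lower with quantile normalization, and 26 higher and 7 lower without scaling.

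Between P55 and P42, that is mid against early telogen, 59 genes had a value, and 16 were at least 2-fold higher and 13 at least 2-fold lower, beside 29.2% and 16.9% of all genes. The median difference was -0.36, and that of all genes 0.22. Of the 59 values, 26 were bounds, against 2606 of 15855 for all genes. Over genes measured on both arrays the medians were -0.06 and 0.38. Cst6, Serpinb5, and Klk7 were at least 10-fold higher (1.17% of all genes) and none was at least 10-fold lower (0.328%). The percentile taken over detected probes gave 14 higher and 22 lower genes, and quantile normalization 16 and 8. Both comparisons share the P42 array, so they are not independent of each other.

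Of 57 genes with a value on both later arrays, 10 were at least 2-fold higher than P42 on both (Cst6, Cst7, Cstdc5, Klk7, Serpinb5, Serpinb6e, Serpinb10, Spink2, Spink10, and Stfa3), beside 16.6% of all genes with such values, and 10 at least 2-fold lower on both (Cstdc1, Cstl1, Klk13, Klk15, Klk1b3, Klk1b5, Klk1b22, Serpinb3c, Spink6, and Spink7), beside 11.3%. All 10 higher genes were higher on both arrays under every scaling tried, and 8 of the 10 lower genes remained lower on both without scaling, where Klk13 and Klk1b5 did not at P69. At least 2-fold higher on both stayed 5 of the 10 higher genes with normexp background correction and 6 with detection required on both arrays. At least 2-fold lower on both stayed 5 of the 10 lower genes with quantile normalization, 6 without scaling, 6 with normexp background correction, and 3 with detection required on both arrays. Another 11 genes were detected on all 3 arrays and stayed within 2-fold of P42.

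**Figure D1:**
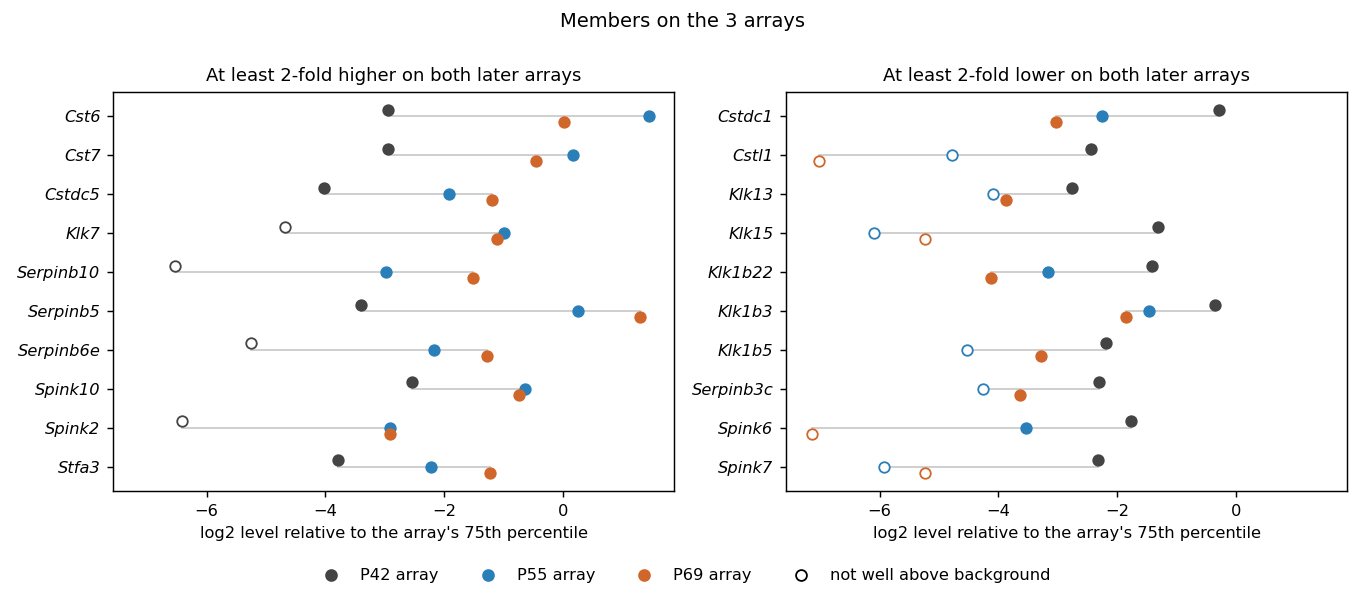
Levels (log2 intensity relative to the array's 75th percentile) of the 10 genes at least 2-fold higher on both later arrays (left) and the 10 at least 2-fold lower on both (right), with 1 point per array and open points where the probe was not well above background. Serpinb5 was at -3.40 at P42 and at 1.30 at P69, and Klk15 was at -1.31 at P42 and not well above background on the later arrays.

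Among the proteases, Klk7, the chymotrypsin-like kallikrein of the cornified layer, had levels of -4.68, -0.997, and -1.12 at P42, P55, and P69, and was not detected at P42. It was thus at least 11.3-fold higher at P55 and at least 10.4-fold higher at P69 than at P42, while both later arrays lay within 0.12 of each other. Klk5, the trypsin-like kallikrein known to activate Klk7, was detected at P55 only, with levels of -5.55, -1.77, and -6.39, at least 6.64-fold above P42 and at least 10.1-fold above P69. Klk9 resembled Klk7 in being detected on the later arrays alone (-4.23, -2.36, and -3.43), at least 3.66-fold higher at P55 and at least 1.74-fold at P69.

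Other kallikreins of the epidermis gave no such pattern. Klk8, a trypsin-like protease also known as neuropsin, had levels of -1.43, -1.83, and -1.55, and its differences from P42 were -0.40 at P55 and -0.12 at P69. Klk10 (0.73, -0.04, and -0.19) and Klk11 (1.86, 1.87, and 1.26) were detected at each age and stayed within 2-fold. Klk6, Klk12, and Klk14 stayed at background on all 3 arrays.

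Klk15 showed the opposite pattern to Klk7. Its levels were -1.31, -6.09, and -5.23, detected at P42 only, so that it was at least 6.64-fold lower at P55 and at least 13.8-fold lower at P69. In its bound at P69, 6 of 14162 genes measured on both arrays were further down. Klk13 was also highest at P42 (-2.76, -4.09, and -3.88), 2.17-fold lower at P69 (0.05 higher on the log2 scale without scaling) and at least 2.43-fold lower at P55, and Klk4 differed from P42 by -0.24 at P55 and, as a bound, by -1.47 at P69 (log2).

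Tissue kallikrein, Klk1, and the Klk1b genes, a mouse-specific group of close copies that includes the growth factor processing kallikreins, were mostly lower. Of 15 genes, 14 had a value (Klk1b27 was not detected). With the 75th percentile scaling and bounds counted, all 14 lay below P42 on both later arrays. The median difference was -0.72 at P55 and -1.01 at P69, where 44.2% and 45.2% of all genes with a value lay below P42. A gene detected at P42 but not on the later array can only come out lower, as a bound. Detected on both arrays were 6 genes at P55 and 11 at P69, all of them lower, with medians of -1.05 and -0.87. With quantile normalization 10 of 14 were lower at P69 and 7 of 9 at P55, and without scaling 6 of 14 and 12 of 13, so that the direction at P69 rests on the scaling. Klk1b22, known as an epidermal growth factor binding protein, had levels of -1.42, -3.16, and -4.12 and was 3.34-fold lower at P55 and 6.53-fold lower at P69. Klk1b3, which encodes the gamma subunit of nerve growth factor, had levels of -0.35, -1.46, and -1.86, and was 2.16-fold and 2.84-fold lower. Klk1 itself (-2.75, -3.32, and -5.20) was at least 5.11-fold lower at P69, where it was not detected.

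Probes of such near-identical copies can bind each other's transcripts, and which copy gave the signal was not tested. Klk1b26 has probes that disagree: the one used here differed from P42 by -0.99 at P55 and -1.99 at P69 (log2), and the other was detected at P55 only, at least 1.99 above P42. The 10 spots of Klk1b11 varied with an SD of 0.71, 0.74, and 0.25 at P42, P55, and P69, beside differences from P42 of -0.87 (a bound) at P55 and -0.42 at P69. The remaining Klk1b genes had differences from P42 between -1.96 and -0.06.

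In the order of the genes along chromosome 7, the kallikreins above P42 (Klk5, Klk7, and Klk9) lie near each other, with Klk6 and Klk8 among them, and Klk15 follows Klk4 at the side of the Klk1b genes. Over the 27 kallikreins the median difference was -0.57 at P55 (23 with a value) and -0.92 at P69 (22 with a value), and the latter turned to 0.24 without scaling.

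**Figure D2:**
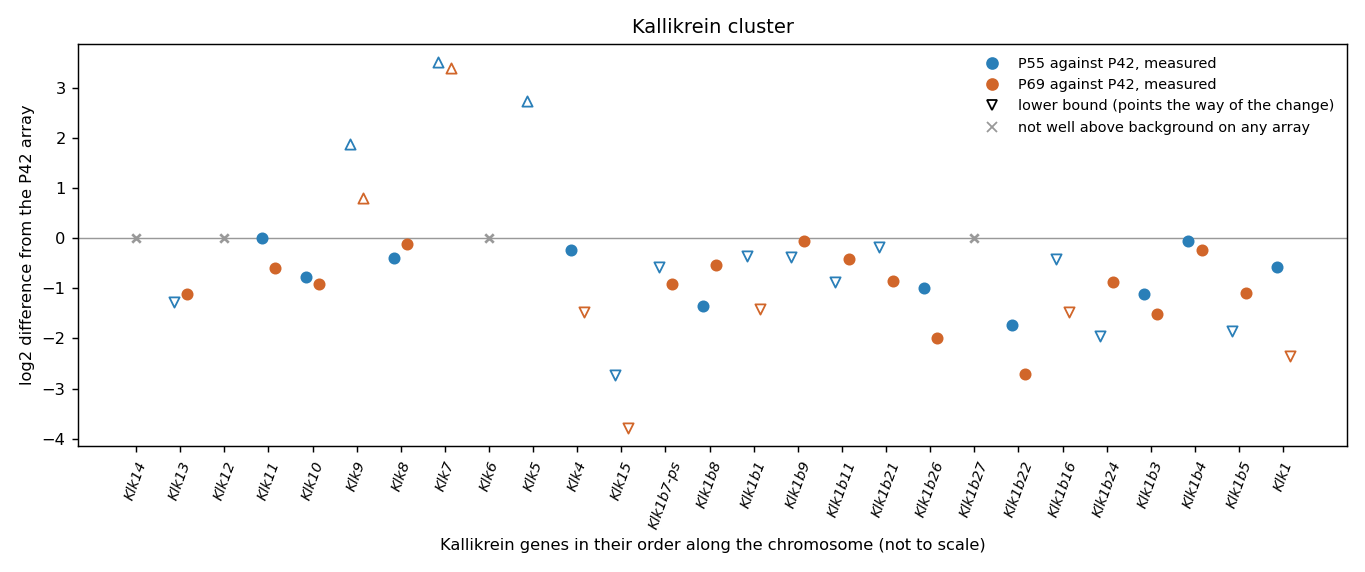
Differences from the P42 array (log2) of the 27 kallikreins in their order along the chromosome, at P55 (blue) and P69 (orange), filled where both arrays were above background and open triangles where the value is a bound that points the way of the change. Klk5, Klk7, and Klk9 stand above 0, the 14 Klk1 and Klk1b genes with a value below it (10 of 14 at P69 with quantile normalization and 6 of 14 without scaling), and crosses mark genes detected on none of the arrays.

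Among the Kazal-type inhibitors, Spink5 encodes LEKTI, the inhibitor of epidermal kallikreins that is lost in Netherton syndrome. Its levels were -1.06, -1.94, and -3.14 at P42, P55, and P69. It was highest at P42, 1.83-fold lower at P55, and 4.21-fold lower at P69, and no spread between mice is known to set this against. Against P42, Spink5 was thus lower and Klk7 higher on both later arrays.

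Spink6, another inhibitor of kallikreins, had levels of -1.76, -3.54, and -7.14 and was 3.43-fold lower at P55 and at least 10.1-fold lower at P69. Spink7 (-2.32, -5.92, and -5.24) was detected at P42 only and was at least 3.30-fold lower at P55 and at least 6.88-fold lower at P69. Spink13 and Spink8, likewise detected at P42 only, had bounds of -1.80 and -1.82 at P69 (log2).

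The reverse was seen for Spink10 and Spink2. Spink10 had levels of -2.54, -0.63, and -0.75, and was 3.74-fold higher at P55 and 3.46-fold higher at P69. Spink2, an inhibitor best known from the testis, was not detected at P42 (-6.41) and had a level of -2.91 on both later arrays, at least 3.02-fold higher on each. Spink1, the trypsin inhibitor of the pancreas, was 4.05-fold higher at P55 and 1.26-fold higher at P69 (-4.20, -2.18, and -3.86). Spink4 differed by -1.43 at P55 and -0.98 at P69 (log2). Of the 12 Spink genes, 9 had a value, with a median difference of -0.76 at P55 and -1.80 at P69. Bounds made up 4 of these values at P55 and 5 at P69. Over the genes measured on both arrays the median was -0.88 at P55 (5 genes) and -0.32 at P69 (4 genes, 2 higher and 2 lower). Spink11, Spink12, and Spink14 were not detected on any array.

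Serpinb5 had the largest difference of the clade B serpins. It encodes maspin, a serpin of epithelial cells that is not known to inhibit a protease. Its levels were -3.40, 0.26, and 1.30, lowest at P42 and detected on every array, and it was 12.6-fold higher at P55 and 26.1-fold higher at P69. Only 4 of the 14162 genes measured on both arrays were further up at P69, and 84 of 13249 at P55. The keratinocyte markers given above, 11 of 14 of which were at least 2-fold higher on each later array, were higher alongside it, and their part in its difference was not tested.

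Serpinb6e and Serpinb10 were detected on the later arrays alone. Serpinb6e, one of several mouse copies related to the cathepsin G inhibitor Serpinb6a, had levels of -5.25, -2.18, and -1.28, at least 5.0-fold higher at P55 and at least 9.34-fold higher at P69. Serpinb10, a serpin of blood-forming cells also called bomapin, had levels of -6.54, -2.98, and -1.51, at least 2.86-fold and at least 7.93-fold higher. Serpinb6b was 2.09-fold higher at P69 and differed by 0.09 (log2) at P55.

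Serpinb6a had levels of 3.85, 4.26, and 4.55 and differed from P42 by 0.41 at P55 and 0.70 at P69, and both probes of Serpinb6c gave similar values (0.38 and 0.44 at P55, 0.61 and 0.56 at P69). Serpinb1a, an inhibitor of neutrophil elastase, had levels of -0.28, -0.59, and -0.38, with differences of -0.32 and -0.10. Serpinb2, the plasminogen activator inhibitor of monocytes and keratinocytes, had levels of -3.38, -3.34, and -3.67, with differences of 0.04 and -0.29.

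Serpinb8, an inhibitor of furin, was far above background at each age (8.34, 7.69, and 7.20), and was 1.57-fold lower at P55 and 2.21-fold lower at P69. Its intensity before scaling was 134208 at P42 and 135849 at P69, and without scaling the difference was 0.02 (log2). Serpinb9, the granzyme B inhibitor, had levels of -3.21, -4.06, and -1.70, and was 2.86-fold higher at P69 and at least 1.78-fold lower at P55, where it was not detected. Its direction at each age would turn if the P55 and P69 arrays were exchanged.

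Several serpins of the epidermis were at background or lower. Serpinb3a, a mouse relative of the squamous cell carcinoma antigens, and Serpinb13, an inhibitor of cathepsins, were not detected on any array. Serpinb12 was detected with one of its probes at P55 only, at least 1.01 above P42 (log2), and not with the other. Serpinb3c (-2.30, -4.25, and -3.64) was at least 3.35-fold lower at P55 and 2.53-fold lower at P69, and Serpinb3d (-2.97, -3.18, and -7.10) had a bound of -2.13 at P69 (log2). Of the other serpins, Serpinb1c and Serpinb9f stayed within 2-fold of P42 on both later arrays, and Serpinb11 differed by -0.51 at P69 (log2). Serpinb3b and Serpinb9e, detected at P42 only, had bounds of -1.13 and -1.45 at P69. Serpinb6d, Serpinb7, and Serpinb9c were detected at P69 only, close to background, and Serpinb1b, Serpinb9b, Serpinb9d, and Serpinb9g on no array. The Serpinb3, Serpinb6, and Serpinb9 copies are similar in sequence, and binding of a probe to another copy was not tested.

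Clade B serpins lie in separate clusters, with the 12 genes of the Serpinb5 cluster on chromosome 1 and the 15 of the Serpinb1a cluster on chromosome 13. In the first, Serpinb5 and Serpinb10 stood above P42 on both later arrays and Serpinb3c below. In the second, Serpinb6e alone was at least 2-fold from P42 on both. Over the 27 genes the median difference was -0.02 at P55 (17 with a value) and 0.10 at P69 (18 with a value), with 5 genes at least 2-fold higher and 5 lower at P69 (22.3% and 21.2% of all genes). That split rested on the scaling, with 6 higher and 1 lower after quantile normalization and 10 higher and 0 lower without scaling, where the median was 1.06.

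**Figure D3:**
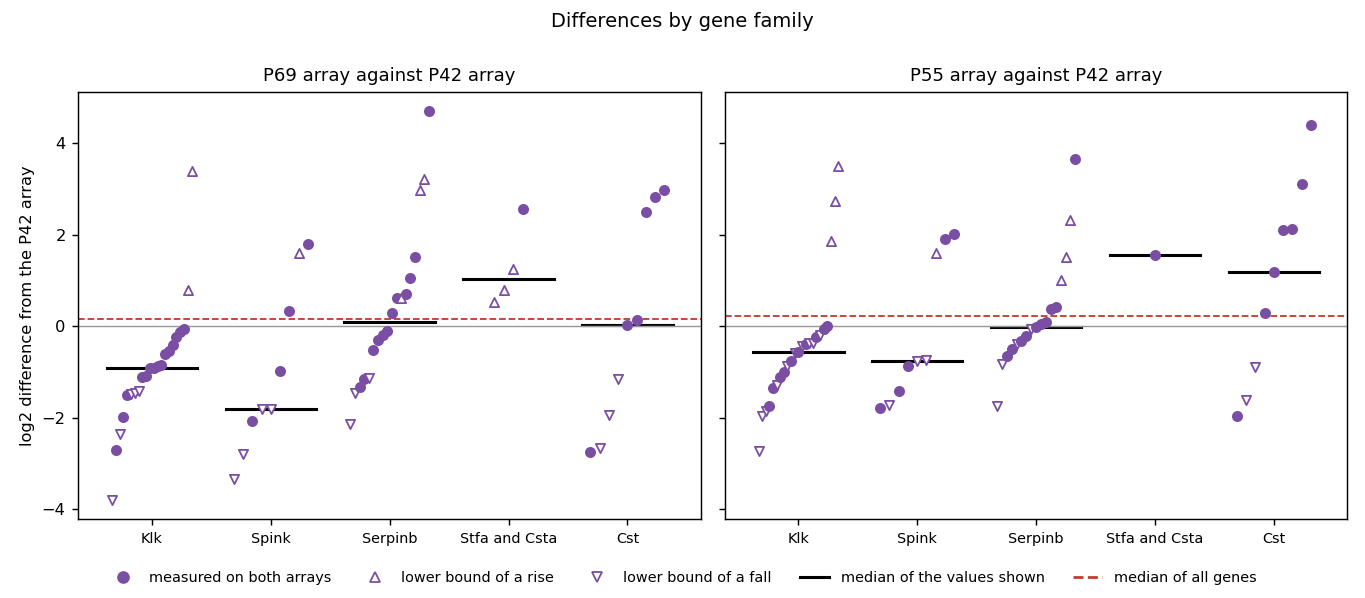
Differences from the P42 array (log2) of each gene with a value, by family, at P69 (left) and P55 (right), with filled points for genes measured on both arrays, open triangles for bounds, black lines for the family median, and a red dashed line for the median of all genes (0.15 and 0.22). With this scaling kallikreins and Spink genes lie mostly below 0 with single genes far above, and Serpinb genes on both sides, whereas without scaling the kallikrein median at P69 was 0.24.

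Among the inhibitors of cysteine proteases, Cst6 and Cst7 were higher on both later arrays. Cst6, cystatin E/M, which inhibits cathepsins and legumain in the cornifying epidermis, had levels of -2.94, 1.45, and 0.03. It was lowest at P42, 21.0-fold higher at P55, and 7.83-fold higher at P69, and 25 of 13249 measured genes were further up at P55. Cst7, cystatin F, an inhibitor made by leukocytes, had levels of -2.94, 0.16, and -0.46, 8.62-fold higher at P55 and 5.61-fold higher at P69.

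Cst3 and Cstb, the cystatin and stefin found in most cells, differed less. Cst3, cystatin C, had levels of 6.11, 7.30, and 6.24, 2.28-fold higher at P55 and 1.10-fold at P69. Cstb had levels of 3.76, 4.05, and 3.79, with differences from P42 of 0.30 and 0.04.

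Of the 7 stefins A, 4 were detected at P69 and 1 at each earlier age. Among all genes, 77.0% were detected at P69, 77.7% at P42, and 70.5% at P55. Of the 19752 genes, 581 were detected at P69 only and 202 at P55 only. Stfa3 was detected at each age, with levels of -3.79, -2.23, and -1.22, and was 2.95-fold higher at P55 and 5.93-fold higher at P69. Stfa1 was detected at P69 only (-6.59, -6.23, and -3.24), at least 2.40-fold higher than at P42. Stfa2 and Stfa2l1 were likewise detected at P69 only, with bounds of 0.53 and 0.79 above P42 (log2), and Csta1, Csta2, and Csta3 on no array. The promoters of the Stfa genes are alike, with 83.5% identity between Stfa3 and Stfa1 and 89.4% between Stfa2 and Stfa2l1. Those of Csta1, Csta2, and Csta3 are less like that of Stfa3, at 39.0%, 45.3%, and 58.6%. Serpinb5 and Klk7, of different families, had 49.7%. Whether the probes of the stefins tell their transcripts apart was not tested.

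Cstdc5, in the same cluster, followed Stfa3, with levels of -4.03, -1.92, and -1.19, 4.32-fold higher at P55 and 7.14-fold higher at P69. Cstdc4, another gene of this cluster, did not, with levels of -3.96, -1.83, and -7.14. It was 4.38-fold higher than P42 at P55 and at least 2.21-fold lower at P69, directions that turn if the P55 and P69 arrays are exchanged.

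Cystatins of the chromosome 2 cluster were partly lower. Cstdc1 had levels of -0.29, -2.26, and -3.04, 3.91-fold lower at P55 and 6.72-fold lower at P69. Cstl1 was detected at P42 only (-2.44, -4.79, and -7.02), at least 3.04-fold lower at P55 and at least 6.33-fold lower at P69, and Cst9 had a bound of -1.94 at P69 (log2). Cst8, Cst10, Cst11, Cst12, Cst13, and Cstdc2 were detected on no array, and neither were Cstdc3 and Cstdc6 of the stefin cluster.

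Between the later arrays, 51 genes had a value, with 5 at least 2-fold higher at P69 than at P55 and 13 at least 2-fold lower, beside 7.88% and 11.3% of all genes. The median difference was -0.11, and that of all genes -0.15. Klk5 was at least 10.1-fold lower at P69, the only one of the genes past 10-fold (0.222% of all genes, and 0.0807% in the other direction, where there was none). Cstdc4 was at least 9.67-fold lower, and Serpinb9 at least 5.09-fold higher. Serpinb5 was 2.07-fold, Serpinb10 2.77-fold, and Stfa3 2.01-fold higher at P69. Cst6 was 2.68-fold and Cst3 2.08-fold lower. With the P55 and P69 arrays exchanged, each of these directions turns.

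Genes that act with these families were taken from lists chosen with earlier results of these data known. Of 17 activators and inhibitors of serine proteases, 14 had a value, and 10 were at least 2-fold higher and 1, Plau, lower on each later array (29.2% and 16.9% of all genes at P55, 22.3% and 21.2% at P69). St14, the membrane protease matriptase, which can activate kallikreins, had levels of -3.46, 2.25, and 0.86, 52.2-fold higher at P55 and 19.9-fold higher at P69. Its inhibitor Spint1 had levels of -1.53, 3.15, and 2.10, 25.7-fold and 12.4-fold higher. Prss8 and Spint2, the protease prostasin and another inhibitor of matriptase, were 2.22 and 2.59 above P42 at P55 and 1.57 and 2.14 at P69 (log2). Wfdc21 had levels of -3.45, 0.02, and -1.96, and was 11.1-fold higher at P55 and 2.81-fold higher at P69.

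Of the 4 corneodesmosome proteins that kallikreins cut, 3 were at least 2-fold higher on each later array (29.2% of all genes at P55, 22.3% at P69). Dsg1a, a cadherin of corneodesmosomes, was not detected at P42 and was at least 15.1-fold higher at P55 and at least 8.33-fold higher at P69, and Cdsn, corneodesmosin, at least 13.9-fold and at least 2.80-fold higher. Dsg1b was 2.56 and 1.90 above P42 at P55 and P69 (log2), and Dsc1 differed from it by -1.60 and -0.88.

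Cathepsins, which the cystatins inhibit, and granule proteases formed a list of 10, of which 6 had a value at P55 and 7 at P69. At least 2-fold higher were 2 at P55 (29.2% of all genes) and 1 at P69 (22.3%), and lower were 0 and 1 (16.9% and 21.2%). Ctsh, cathepsin H, was 3.93-fold higher at P55 and 2.49-fold higher at P69. Ctsb, cathepsin B, had levels of 6.38, 6.70, and 5.88, Ctss, cathepsin S, 6.21, 6.81, and 6.11, and Ctsz, cathepsin Z, 5.24, 5.65, and 5.31, each within 2-fold of P42. Elane and Gzmb, targets of Serpinb1a and Serpinb9, were not detected on any array.

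Among 11 proteases and transglutaminases of keratinocytes, 3 were at least 2-fold higher at P55 (29.2% of all genes) and 5 at P69 (22.3%), and Tgm3 was lower on both, with levels of 5.49, 3.45, and 3.31. Casp14, a caspase of cornifying cells, was not detected at P42 and was at least 9.07-fold higher at P55 and at least 5.38-fold higher at P69. Capn1 and Lgmn, a calpain and the protease legumain that Cst6 inhibits, stayed within 2-fold (5.57, 5.89, and 5.08 for Capn1, and 4.20, 4.37, and 4.08 for Lgmn).

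**Figure D4:**
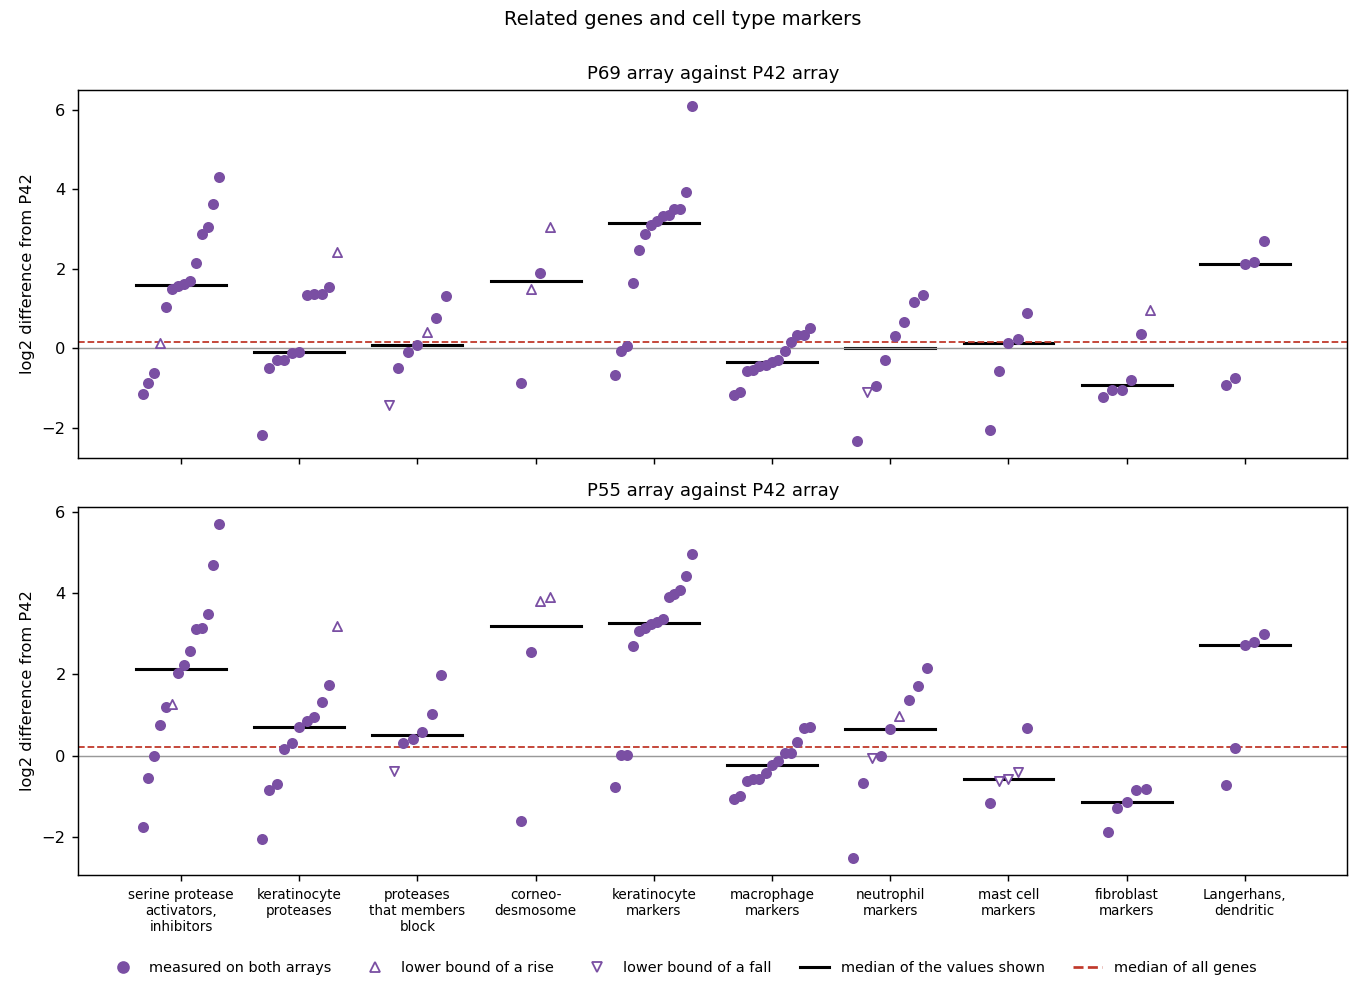
Differences from the P42 array (log2) of related genes and cell type markers at P69 (top) and P55 (bottom), with filled points for genes measured on both arrays, open triangles for bounds, black lines for list medians, and a red dashed line for the median of all genes. The keratinocyte markers have medians of 3.15 and 3.27 and the macrophage markers of -0.35 and -0.23.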

How the data were processed

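Macrophages (CD11b+Gr1-F4/80+) of 3 pooled CD1 littermates per age were measured on 1 Agilent array per age. The authors deposited the intensity of each spot, background-corrected by Feature Extraction (10.7.3.1 in the submitters' processing notes) and not scaled between arrays, with detection flags. They also deposited processed log2 values of 36409 probes, centred per probe on the median of the 3 arrays, with column medians of 0.362 (P42), 0 (P55), and 0 (P69). Their normalization is not given in the sources used here, and their P55 and P69 columns are exchanged relative to the scanner files, so which later array is which is unknown. The labels give day 42 for the first age, and the study describes early telogen at a slightly later day.

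Control and outlier spots (162, 274, and 281 at P42, P55, and P69) were dropped, spots of the same probe averaged, and each array's 75th percentile (intensities of 414, 497, and 927) subtracted on the log2 scale. Detection required the software's background call on a share of at least 0.5 of the spots, and held for 71.4%, 59.6%, and 68.7% of 55681 probes. No spot was saturated. RefSeq transcripts named 26056 probes, and the probe of highest mean level stood for a gene. Precision is limited by 1 array per age, and no test was possible. The scaling and the differences were tested on simulated data in which the changed probes were bright and stayed detected. The rule for bounds and the range near background were not covered by that test.

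The genes, lists, and rules were chosen with earlier results of these data known. Genes given on each array were those measured on all 3, or bounded on both later ones, at least 2-fold from P42 on both, and a list of known genes of these families. Klk1, Klk9, Klk10, Klk11, Klk13, Spink1, Spink6, Serpinb3c, Serpinb3d, Cstdc4, and the genes given by a difference alone were added after their values were seen. Of the related genes, those past 10-fold and the 3 of highest level per list were given, with Plau, Dsc1, Elane, Gzmb, and Casp14 added in the same way. Alternatives were 2 further scalings and none, normexp (offset 50, limma 3.58.1, R 4.3.3), the deposited log2 values, filters on dim probes, outlier spots kept, the median over probes, and the later arrays exchanged. Python 3.11.15, numpy 2.4.6, and pandas 2.3.3 were used.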

Additional observations from a re-analysis of the deposited data

Results flagged for a closer look

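Cstdc4, a cystatin-domain gene of the stefin cluster, was the only one of the 90 genes that lay at least 2-fold from P42 in opposite directions on the later arrays. Its difference from P42 was 2.13 (log2) at P55 and, as a bound, -1.14 at P69, where its probe was not well above background. The contrast between these differences was not tested, because there was 1 array per age.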

How the results depend on the processing

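All counts below are of genes among the 90. For P69 against P42, 13 were at least 2-fold higher, against 26 without scaling and 8 with detection on both arrays. The 24 at least 2-fold lower became 15 with quantile normalization, 7 without scaling, 9 with detection on both arrays, and 13 with the later arrays exchanged. The 2 at least 10-fold higher became 1 with the percentile over detected probes, with normexp, and with detection on both arrays, 6 with quantile normalization, the authors' log2 table, and no filter, and 8 without scaling. The 2 at least 10-fold lower became 1 with quantile normalization, 0 without scaling, with normexp, with detection on both arrays, and with the exchange, and 8 without a filter. For P55 against P42, the 16 at least 2-fold higher became 7 with normexp and 9 with detection on both arrays. The 13 at least 2-fold lower became 22 with the percentile over detected probes, 8 with quantile normalization and with normexp, 24 in the authors' log2 table and with the exchange, 6 with detection on both arrays, and 30 without a filter. The 3 at least 10-fold higher became 1 with the percentile over detected probes and with normexp, and 6 with quantile normalization, the authors' log2 table, and no filter, and the 0 at least 10-fold lower became 8 in the authors' log2 table, 3 without a filter, and 2 with the exchange. For P69 against P55, the 5 at least 2-fold higher became 3 with quantile normalization and with detection on both arrays, 23 without scaling, 1 with normexp, 13 in the authors' log2 table and with the exchange, and 14 without a filter. The 13 at least 2-fold lower became 3 without scaling, 6 with detection on both arrays, and 5 with the exchange. Outlier spots and the median over probes moved no count. At P69 against P42, Serpinb8 turned to 0.018, Klk13 to 0.047, and Klk1b5 to 0.072 (log2) without scaling, Serpinb9 to -0.85 in the authors' log2 table and -0.83 with the exchange, and Cstdc4 to 2.13 in both. At P55 against P42, Cstdc4 turned to -3.18 in the table and -1.14 with the exchange. Of the other differences from P42 of at least 2-fold, none changed direction under an alternative that gave it a value. Smaller differences were not followed in this way, and some did change. At P69 without scaling, Klk1b24 went from -0.87 to 0.29 and Klk1b8 from -0.54 to 0.62 (log2). Apart from the filters, the exchange, and the scaling, which act by construction, the cause was not tested. The median of all genes at P69 against P42 was 0.15, and -0.05, 0.30, 1.31, and 0.03 with the percentile over detected probes, quantile normalization, no scaling, and normexp. At P55 against P42 it was 0.22, and -0.16, 0.32, 0.52, and 0.12. Relative to all genes, the median of the 90 lay lower at P69 under each of these, at -0.73, -0.00, 0.81, and -0.81. Of the 10 genes 2-fold higher on both later arrays, 5 kept this with normexp, 6 with detection on both arrays, and 10 with every other scaling. Most of the 90 genes lie near the background, so that many differences are bounds. No paired analysis was possible because there is 1 array per age, and for the same reason no replicate could be left out.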
